A study of Mus musculus with 24 samples.

Results

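The genes described here are the immediate early transcription factors Egr1, Egr2, Egr3, Nr4a1, Nr4a2 and Nr4a3 and the Egr corepressors Nab1 and Nab2, 8 of the 17097 genes tested. They were chosen by name, as the members of the Egr and Nr4a families with the Nab proteins that bind Egr factors. This choice, like that of the gene lists below, was made with earlier results of these data known. Each gene was read from its brightest probe set by mean over the 24 arrays. The 8 genes had 17 probe sets, and the remaining ones served as a check. Egr1, Egr3, Nr4a1 and Nab2 had 1 probe set each, so no other set could check them. Egr4, the other Egr gene, lay near background and stands with the other immediate early genes.

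The arrays held RNA of CD4+CD62LhiCD44loCD25- naive T cells, sorted from spleen and peripheral lymph nodes of mice of 2 genotypes. The wild-type mice had the strain label C57BL/6, and the CD4(cre)Raptor(fl/fl) mice, here Raptor-deficient, had none. The labels give no age or sex and name no control that carries the Cre alone, so strain background and Cre cannot be told apart from loss of Raptor. In the CD4(cre) line the recombinase is driven by the Cd4 promoter and acts from the thymus on. The cells were unstimulated, or had been stimulated for 8 h or 24 h on plates coated with anti-CD3 and anti-CD28, 4 samples in each of the 6 groups. No label says that the 4 samples of a group came from separate mice, so the tests measure the spread between samples, which may be technical. The study asked how Raptor, the subunit that sets mTORC1 apart from other mTOR complexes, bears on the exit of naive T cells from quiescence.

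Egr factors are zinc finger proteins that bind GC-rich sites. Their genes are switched on within minutes of antigen receptor signalling, through the Ras and ERK kinases and the factors Elk and SRF, which bind the CArG box. In T cells Egr1 promotes activation, whereas Egr2 and Egr3 also restrain it, and Nab1 and Nab2 bind Egr proteins and mostly repress their targets. The Nr4a genes encode orphan nuclear receptors that bind the NBRE, and they are induced through calcium, MEF2 and CREB, which binds the CRE. Nr4a1, also called Nur77, is widely used as a readout of the strength of antigen receptor signalling.

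Promoter windows of 250 bases upstream of the annotated start (RefSeq, assembly GRCm38.p6) were found for 6 of the 8 genes. The windows of the 3 Nr4a genes are shown because these genes had the largest differences between genotypes after stimulation, and that of Nab1 because it was called in opposite directions at 8 h and 24 h. In each, capitals mark the CRE core TGACG or the Egr site GCGNGGGCG, on either strand. The core is a part of the full CRE, TGACGTCA, which no window of the 6 genes held, and it does not overlap the Egr site in the windows shown. The Nr4a1 window is chr15:101266596-101266845 (plus strand), that of Nr4a2 chr2:57124004-57124253 (minus strand), that of Nr4a3 chr4:48045055-48045304 (plus strand) and that of Nab1 chr1:52500449-52500698 (minus strand).
Nr4a1: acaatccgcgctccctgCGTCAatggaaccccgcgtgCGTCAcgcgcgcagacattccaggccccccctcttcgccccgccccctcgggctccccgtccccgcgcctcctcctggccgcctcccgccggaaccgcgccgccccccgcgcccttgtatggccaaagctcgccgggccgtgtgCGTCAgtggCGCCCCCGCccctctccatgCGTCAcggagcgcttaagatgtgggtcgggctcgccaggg
Nr4a2: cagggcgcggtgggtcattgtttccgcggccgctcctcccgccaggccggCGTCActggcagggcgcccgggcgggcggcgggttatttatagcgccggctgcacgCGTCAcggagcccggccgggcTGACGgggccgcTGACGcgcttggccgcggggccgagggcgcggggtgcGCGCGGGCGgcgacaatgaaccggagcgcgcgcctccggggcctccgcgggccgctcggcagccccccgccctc
Nr4a3: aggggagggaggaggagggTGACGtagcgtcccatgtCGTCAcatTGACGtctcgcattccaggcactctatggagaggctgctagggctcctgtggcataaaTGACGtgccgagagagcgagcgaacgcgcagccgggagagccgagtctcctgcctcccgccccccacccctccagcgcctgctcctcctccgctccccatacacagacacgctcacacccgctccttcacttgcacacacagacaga
Nab1: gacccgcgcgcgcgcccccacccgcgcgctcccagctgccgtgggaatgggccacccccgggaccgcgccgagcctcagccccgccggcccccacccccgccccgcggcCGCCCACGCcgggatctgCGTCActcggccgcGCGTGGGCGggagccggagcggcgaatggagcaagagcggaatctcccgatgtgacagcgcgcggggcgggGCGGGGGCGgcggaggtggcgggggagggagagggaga

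Each of the 3 Nr4a windows held 4 CRE cores, a number reached by 0.137% of the 32851 windows in the table, of which 17.8% held at least 1. Nr4a1 and Nr4a2 also had 1 Egr site each and Nr4a3 had none, and 4.7% of all windows had such a site. Nab1 had 3 Egr sites and 1 CRE core, and 0.648% of all windows held 2 or more Egr sites. Egr2 has 5 annotated starts, and the window of the second held a CArG box. The windows of the last 3, which lie close together, shared another CArG box and 2 CRE cores. The stretch chr10:67537797-67537818 (plus strand), 72 to 51 bases before the third start, is shown because it joins that CArG box (first capitals, in 1.47% of windows) to a CRE core (last capitals).
Egr2: CCATATATGGgcagcgaCGTCA
The Nab2 window held none of these motifs, and no window of the 6 genes held the NBRE AAAGGTCA, found in 1.34% of all windows. A match of letters is not a bound site, and the arrays measured no binding.

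Some libraries differed from the rest of their group. The means of both probe sets of Rptor, which encodes Raptor, were lower in Raptor-deficient cells, by 0.62, 1.01 and 0.64 for the brighter set on the log2 scale without stimulation, at 8 h and at 24 h, and the difference without stimulation did not pass the test (limma, adjusted p = 0.075). In that set the library labelled unstimulated Raptor-deficient replicate 2 stood at 7.37, within the wild-type range of 7.04 to 7.49, while the other 3 of its group were at 5.92 to 6.79. In the dimmer set all 4 samples of that group, at 5.47 to 5.85, lay below the wild-type range of 6.17 to 6.28. The same library stood at 5.74 there. Without it the same number of members, 3, 5 and 6, was called between genotypes without stimulation, at 8 h and at 24 h. The position of these probes relative to the deleted exon was not checked here. Replicate 1 of unstimulated Raptor-deficient cells differed most from its group, with 377 genes that were 2-fold or more from the mean of its 3 fellows, and replicates 2 and 3 of that group also varied more than arrays elsewhere. Replicate 1 of both 24 h groups had high liver transcripts, with Alb at 9.02 and 9.11 against 6.22 to 6.42 in the other 24 h arrays. All 9 CD4 T cell markers tested lay above the median of all values, and B cell, myeloid and NK cell lists averaged near or below it.

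In wild-type cells 8 h of stimulation raised 7 of the 8 genes and lowered 0, where 18.9% of all genes were called higher and 20.8% lower (limma on log2 values, Benjamini-Hochberg adjusted p under 0.05 over all 17097 genes, the rule for every call here). Nr4a1 rose 28.0-fold, Egr2 25.5-fold, Egr1 22.1-fold, Nr4a3 12.4-fold and Nr4a2 10.8-fold. The unstimulated means of Nr4a1 (5.57) and Nr4a2 (5.92) lay close to the level of dim probe sets, where array values understate folds, and the order of the folds was not tested. Nab2 rose 4.07-fold and Egr3 1.94-fold, and Nab1 did not change detectably (-0.14 on the log2 scale, 95% interval -0.31 to 0.04, adjusted p = 0.224). The members' median difference was 3.53 on the log2 scale, against -0.03 over all genes. In bulk RNA, more transcript per cell and more cells that express a gene cannot be told apart.

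Between 8 h and 24 h the members divided. In wild-type cells 5 of the 8 fell and 1 rose, against 11.0% of all genes lower and 17.4% higher. The 3 Nr4a genes fell by 1.38 (Nr4a1), 1.51 (Nr4a2) and 0.91 (Nr4a3) on the log2 scale, and Egr1 and Egr2 fell by 0.91 and 1.0. Egr3 went the other way, up 1.25-fold (adjusted p = 0.00493), and Nab2 was not called (-0.10, 95% interval -0.35 to 0.15). At 24 h 7 members were still above unstimulated cells and 0 below, against 25.4% of all genes higher and 24.3% lower.

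In Raptor-deficient cells all 8 members were higher after 8 h than without stimulation, where 16.0% of all genes were called higher and 16.8% lower, and Nr4a1 rose 29.8-fold. The smallest of these rises, 0.25 for Nab1 (adjusted p = 0.0217), had overlapping groups and lost its call in 7 of 35 alternatives, among them without replicate 1 of the unstimulated group (0.18, adjusted p = 0.106), which left 7 members called. At 24 h 7 were higher and 1, Nab1, was lower, against 21.6% and 17.5% of all genes. From 8 h to 24 h 6 fell and 0 rose, against 7.81% lower and 15.2% higher. The 6 were Egr1, Egr2, the 3 Nr4a genes and Nab1.

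**Figure D1:**
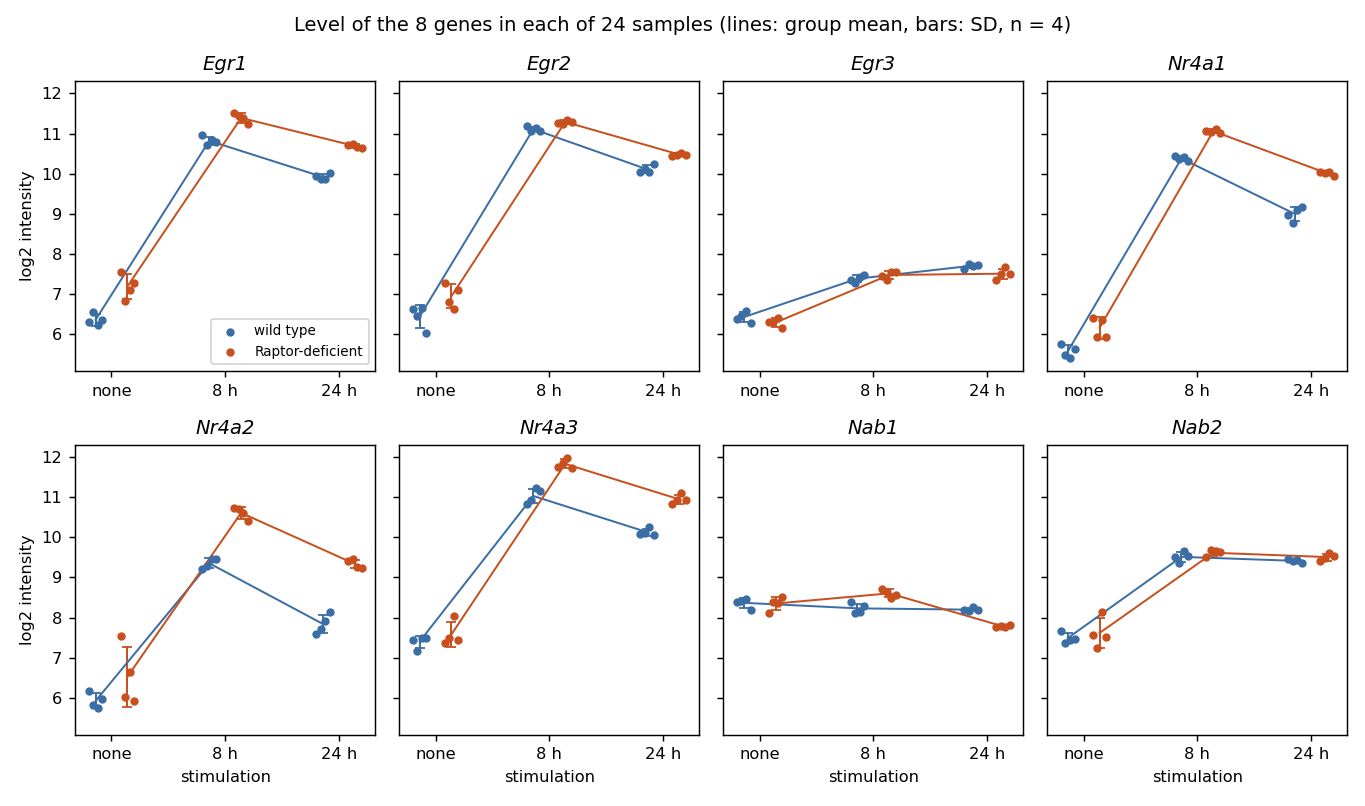
Log2 intensity of each of the 8 genes (y axis) in the 24 samples, by stimulation (x axis) and genotype; points are samples, lines join group means and bars are SD (n = 4). Egr1, Egr2 and the 3 Nr4a genes peak at 8 h in both genotypes, with the Raptor-deficient mean above the wild-type mean at each time, while Egr3, Nab1 and Nab2 have other courses.

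Raptor-deficient cells had higher levels of most of these genes than wild-type cells. At 8 h 5 of the 8 were called higher and 0 lower, against 4.14% and 8.77% of all genes, and at 24 h 5 were higher and 1 lower, against 8.35% and 13.1%. Without stimulation 3 were higher and 0 lower, against 0.702% and 1.24%. The median difference of the 8 was 0.35 without stimulation, 0.47 at 8 h and 0.57 at 24 h on the log2 scale, while the median over all genes lay between -0.01 and 0.01. Without replicate 1 of unstimulated Raptor-deficient cells 2 members were called higher without stimulation, and without replicate 1 of both 24 h groups 4 were called higher and 1 lower at 24 h. The means in these 3 comparisons come from different samples, but their tests share an estimate of the spread. All samples come from the same 2 genotypes.

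Egr1, an activating member of the family, was higher in Raptor-deficient cells at all 3 times. Without stimulation its log2 intensities were 6.31, 6.56, 6.22 and 6.35 in wild-type and 7.54, 6.83, 7.11 and 7.28 in Raptor-deficient samples. After 8 h they were 10.96, 10.72, 10.83 and 10.78 against 11.51, 11.43, 11.38 and 11.23, and after 24 h 9.94, 9.86, 9.86 and 10.01 against 10.71, 10.75, 10.66 and 10.65. At no time did the genotypes overlap. The difference was 0.83 ± 0.11 (SE from the spread pooled over all 6 groups, n = 4 a group) without stimulation, 1.78-fold, with adjusted p = 5.52e-05. It was 0.56 at 8 h (adjusted p = 0.000708) and 0.78 at 24 h (adjusted p = 5.27e-06). Unstimulated samples had an SD of 0.30 in Raptor-deficient and 0.14 in wild-type cells. Over the 35 alternatives the adjusted p of the unstimulated difference reached 0.0435. The 8 h rise was 4.20 in Raptor-deficient and 4.46 in wild-type cells, a difference that was not called (-0.27, 95% interval -0.59 to 0.05, adjusted p = 0.357). Without replicate 1 of unstimulated Raptor-deficient cells, the unstimulated difference was 0.71 (adjusted p = 0.000197).

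Egr2, which restrains T cell activation, differed less. Unstimulated wild-type samples stood at 6.62, 6.45, 6.66 and 6.03 and Raptor-deficient samples at 7.28, 6.79, 6.62 and 7.11, and the groups overlapped. At 8 h they ran from 11.07 to 11.19 and from 11.23 to 11.35, and at 24 h from 10.04 to 10.25 and from 10.45 to 10.52, without overlap. The differences were 0.51 (adjusted p = 0.0241), 0.17 (adjusted p = 0.424) and 0.37 (adjusted p = 0.0299), so the call was made without stimulation and at 24 h. Both calls are close to the threshold. The unstimulated call was lost without replicate 1 of unstimulated Raptor-deficient cells (0.40, adjusted p = 0.0892), and the 24 h call without replicate 1 of both 24 h groups (0.36, adjusted p = 0.0999). The other Egr2 probe set, which rose by 5.49 in wild-type cells at 8 h, was called at none of the 3 times (0.28, 0.07 and 0.28).

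Egr3, the relative of Egr2 with overlapping functions, was called at no time. This rests on its 1 probe set, which rose only 1.94-fold in wild-type cells at 8 h. Its levels ran from 6.28 to 6.59 in unstimulated wild-type and from 6.15 to 6.41 in Raptor-deficient samples, from 7.28 to 7.47 and 7.35 to 7.56 at 8 h, and from 7.64 to 7.75 and 7.35 to 7.66 at 24 h. The groups overlapped at each time. The differences were -0.13, 0.09 and -0.20, with adjusted p = 0.532, 0.578 and 0.110, and the 24 h interval of -0.37 to -0.02 is not adjusted for the number of genes.

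Nr4a1 was higher in Raptor-deficient cells at every time, with the largest estimate at 24 h. Without stimulation the wild-type samples stood at 5.76, 5.47, 5.41 and 5.64 and the Raptor-deficient ones at 6.42, 5.93, 6.36 and 5.93. After 8 h the values were 10.44, 10.36, 10.41 and 10.31 against 11.06, 11.03, 11.12 and 11.02, and after 24 h 8.96, 8.76, 9.09 and 9.17 against 10.03, 10.02, 10.04 and 9.93. The genotypes did not overlap at any time. The differences were 0.59 (adjusted p = 0.0023), 0.68 (adjusted p = 7.28e-05) and 1.01 ± 0.11 (SE from the pooled spread, n = 4 a group), which is 2.02-fold (adjusted p = 5.95e-08). Raptor-deficient cells at 24 h, mean 10.01, had less Nr4a1 than wild-type cells at 8 h, mean 10.38, and more than wild-type cells at 24 h, mean 8.99, with no overlap between these neighbours. The rise from unstimulated cells to 24 h was 0.42 larger in Raptor-deficient cells, which did not pass the test (adjusted p = 0.0657). Nor was the genotype difference called larger at 24 h than at 8 h (0.33, adjusted p = 0.303).

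Nr4a2 had the largest differences of the 8 after stimulation. The 8 h samples stood at 9.20, 9.29, 9.46 and 9.47 in wild-type and 10.74, 10.70, 10.60 and 10.41 in Raptor-deficient cells, and the 24 h samples at 7.60, 7.73, 7.91 and 8.13 against 9.41, 9.45, 9.26 and 9.24. Neither time had an overlap. The differences were 1.26 ± 0.21 (SE from the pooled spread, n = 4 a group), 2.40-fold, at 8 h (adjusted p = 0.000143) and 1.50 ± 0.21, 2.82-fold, at 24 h (adjusted p = 5.6e-06). In wild-type and Raptor-deficient cells the SDs were 0.13 and 0.14 at 8 h and 0.23 and 0.11 at 24 h. Unstimulated Raptor-deficient cells, which enter the same pooled spread, had an SD of 0.74. Without replicate 1 of both 24 h groups the 24 h difference was 1.40 (adjusted p = 0.000244). Raptor-deficient cells at 24 h (mean 9.34) overlapped wild-type cells at 8 h (mean 9.35).

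Before stimulation Nr4a2 was uneven among the Raptor-deficient samples, at 7.53, 6.01, 6.65 and 5.92, against 6.16, 5.81, 5.74 and 5.98 in wild type. The highest value belongs to replicate 1, which stood apart over all genes. The difference of 0.60 was not called (adjusted p = 0.156) and was 0.27 without that replicate (adjusted p = 0.445). Of the 5 Nr4a2 probe sets, the 3 brighter ones agreed after stimulation, with 1.12 to 1.27 at 8 h and 1.50 to 1.51 at 24 h. The other 2 of these 3 were also called without stimulation (0.85 and 0.84). The 2 dim sets, with means of 5.83 and 5.76, rose by 0.91 and 0.47 in wild-type cells at 8 h and were called in no comparison between genotypes.

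Nr4a3 differed by genotype after stimulation. Unstimulated samples stood at 7.45, 7.18, 7.49 and 7.49 in wild-type and 7.36, 7.49, 8.04 and 7.44 in Raptor-deficient cells, with overlap. At 8 h the values were 10.84, 10.92, 11.22 and 11.16 against 11.76, 11.84, 11.98 and 11.73, and at 24 h 10.08, 10.10, 10.26 and 10.07 against 10.84, 10.93, 11.11 and 10.92. Both stimulated times were free of overlap. The differences were 0.18 (adjusted p = 0.559), 0.80 (adjusted p = 4.43e-05) and 0.82 (adjusted p = 9.42e-06). The other 2 probe sets gave 0.78 and 0.90 at 8 h and 0.90 and 0.93 at 24 h, all called, but 0.44 (called) and 0.73 (not called) without stimulation. How far Nr4a3 differed before stimulation therefore varied between its probe sets.

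Nab1, a corepressor of Egr factors, was called higher in Raptor-deficient cells at 8 h and lower at 24 h, which held for no other member. Unstimulated samples ran from 8.20 to 8.46 in wild-type and from 8.12 to 8.51 in Raptor-deficient cells. At 8 h wild-type samples stood at 8.38, 8.12, 8.15 and 8.28 and Raptor-deficient ones at 8.72, 8.65, 8.50 and 8.55, all 4 above. At 24 h the order was turned, with 8.18, 8.18, 8.26 and 8.18 against 7.77, 7.78, 7.78 and 7.80, all 4 below. The differences were -0.02, 0.37 (adjusted p = 0.00329) and -0.42 (adjusted p = 0.000667). The change from 8 h to 24 h differed between genotypes by -0.79 (95% interval -1.04 to -0.54, adjusted p = 5.95e-05). A further Nab1 probe set gave 0.29 at 8 h, not called, and -0.44 at 24 h, called, and a dim set, mean 4.85, gave 0.24 at 24 h, not called. With the mean of all 3 sets in place of the brightest, the 24 h difference was -0.20 (adjusted p = 0.182).

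Nab2, the corepressor that is itself induced by Egr factors, rose in both genotypes and was called in no genotype comparison. Its group means were 7.49, 9.51 and 9.41 in wild-type and 7.62, 9.62 and 9.51 in Raptor-deficient cells. The genotypes overlapped at each time. The differences were 0.13, 0.10 and 0.09, with 95% intervals of -0.12 to 0.38, -0.15 to 0.35 and -0.16 to 0.35.

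**Figure D2:**
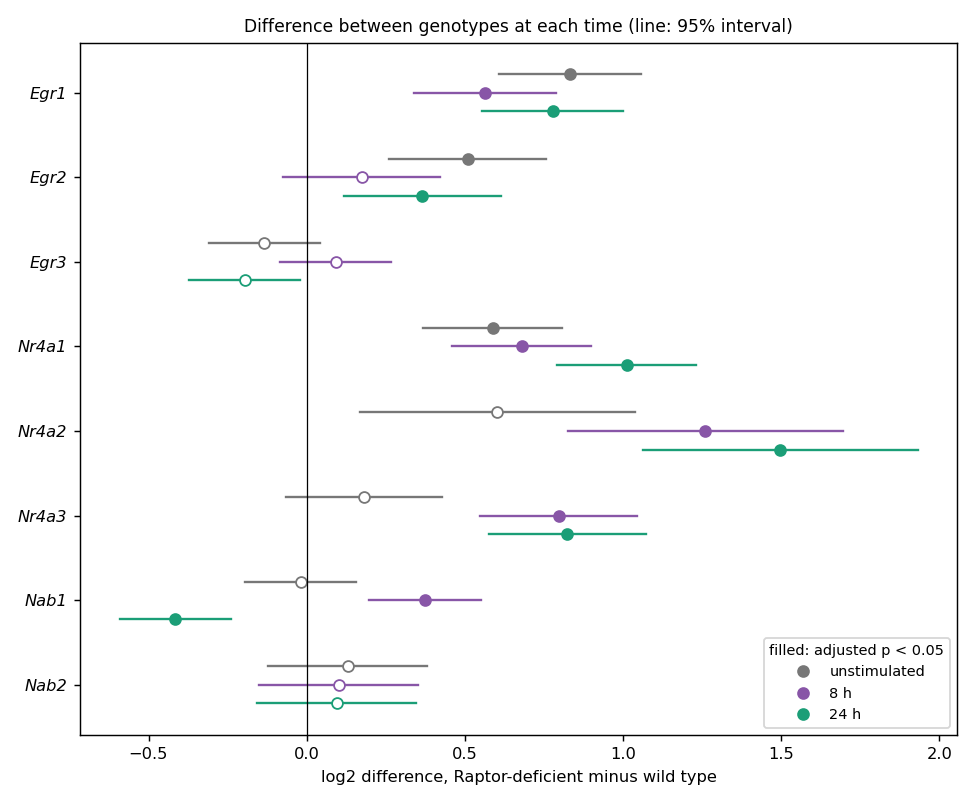
Log2 difference between Raptor-deficient and wild-type cells (x axis) for the 8 genes (y axis) without stimulation and at 8 h and 24 h; points are differences of group means (n = 4 each), lines 95% intervals not adjusted for the number of genes, and filled points passed the adjusted test. Egr1 and Nr4a1 are filled at all 3 times, Nr4a2 and Nr4a3 at 8 h and 24 h, and Nab1 changes side between 8 h (0.37) and 24 h (-0.42).

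**Figure D3:**
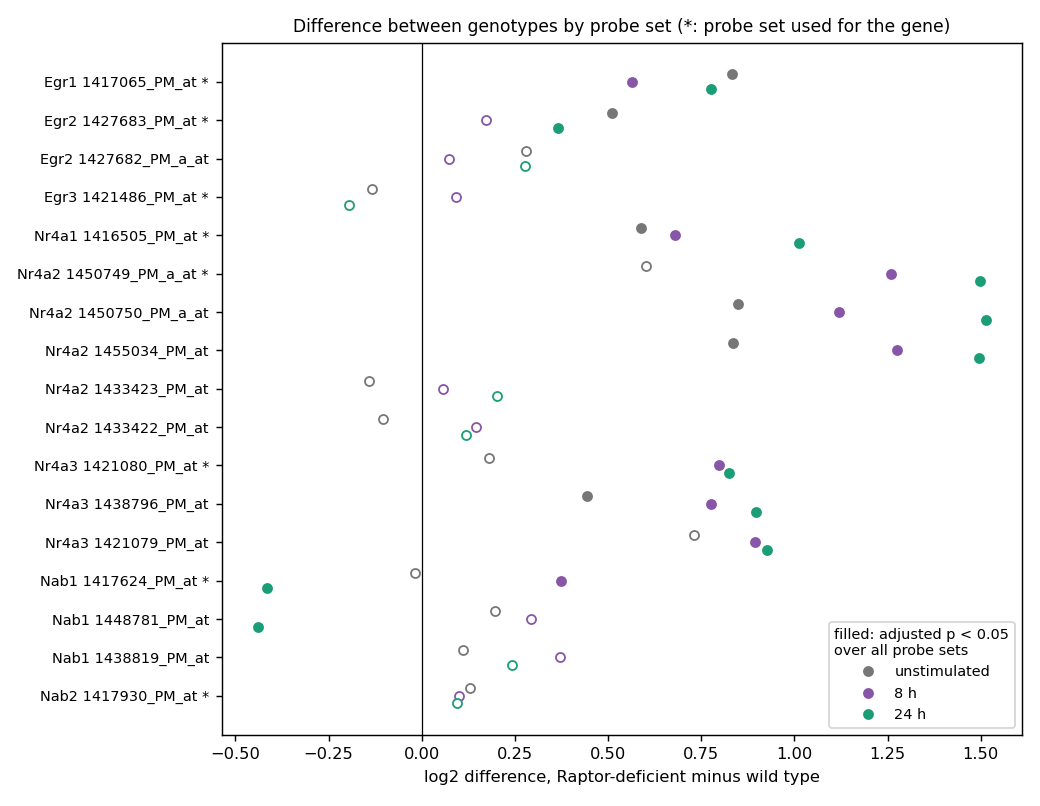
The same log2 difference (x axis) for each of the 17 probe sets of the 8 genes (y axis), with the probe set used for each gene starred; points are differences of group means (n = 4 each), filled where the adjusted p over all probe sets was under 0.05. The 3 brighter Nr4a2 sets lie together at 24 h (1.50 to 1.51) while its 2 dim sets lie near 0, and both Egr2 sets stay under 0.52.

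Whether the response to stimulation itself differed was tested as the difference between genotypes in each change over time. From unstimulated to 8 h 1 member, Nr4a3, had a larger rise in Raptor-deficient cells and 0 a smaller one, against 1.94% and 4.36% of all genes. From unstimulated to 24 h 2 were higher and 1 lower, against 5.26% and 8.01%, and from 8 h to 24 h 0 were higher and 1 lower, against 1.33% and 3.20%. The Nr4a3 rise was 0.62 larger at 8 h (adjusted p = 0.0281) and 0.64 larger at 24 h (adjusted p = 0.0112). The 8 h call was lost in 12 of 35 alternatives, among them without unstimulated Raptor-deficient replicate 2 (0.59, adjusted p = 0.0506). With its other probe sets these differences were 0.33 and 0.17 at 8 h, neither called, and 0.45 (called) and 0.20 (not called) at 24 h.

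The rise of Nr4a2 to 24 h was 0.89 larger in Raptor-deficient cells (95% interval 0.28 to 1.51, adjusted p = 0.0465), and this call was lost in 25 of 35 alternatives. It was 1.23 without replicate 1 of unstimulated Raptor-deficient cells (adjusted p = 7.93e-05), 0.72 without replicate 2 of that group (adjusted p = 0.11) and 0.79 without replicate 1 of both 24 h groups (adjusted p = 0.137). Without replicate 1 of unstimulated Raptor-deficient cells the 8 h rise of Nr4a2 was also called, 0.99 larger (adjusted p = 0.00252), against 0.66 with all samples (adjusted p = 0.215). The change of Nab1 to 24 h was 0.40 lower (adjusted p = 0.0281), and 0.40 lower but not called without replicate 1 of both 24 h groups (adjusted p = 0.0643). With all samples no difference in response was called for Egr1, Egr2, Egr3, Nr4a1 or Nab2, and for Egr1 the 24 h interval was -0.37 to 0.26. The larger rise of Nr4a1 to 24 h, 0.42, was called in 6 of 35 alternatives, among them without replicate 1 of unstimulated Raptor-deficient cells (0.51, adjusted p = 0.0189).

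**Figure D4:**
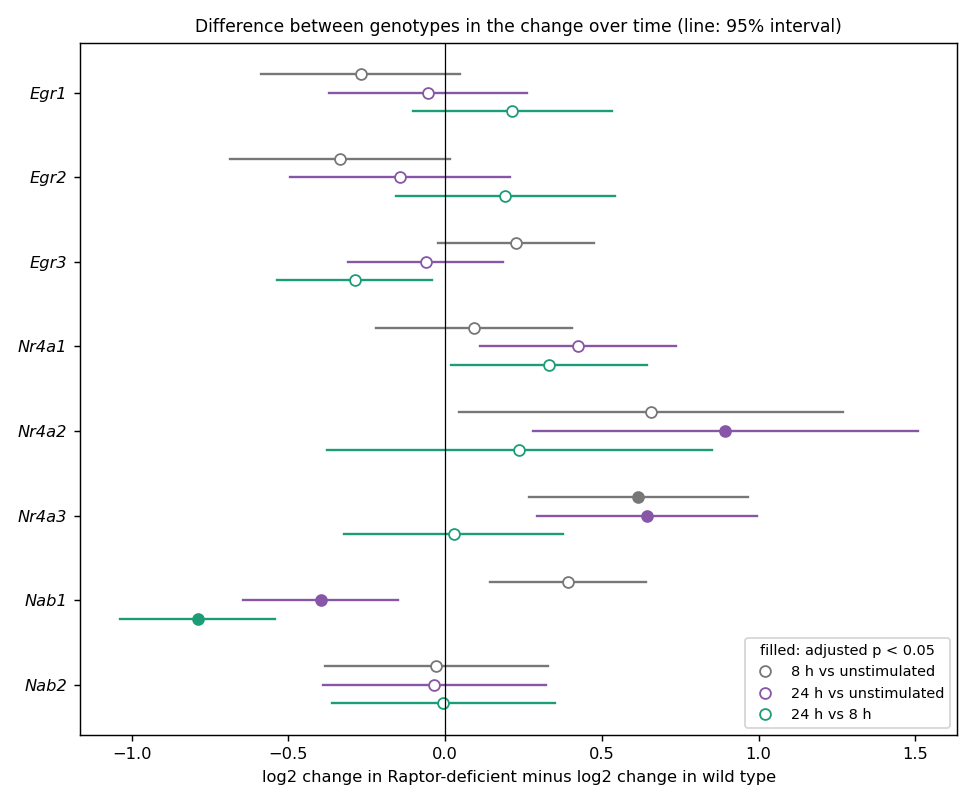
Difference between genotypes in the log2 change over time (x axis, change in Raptor-deficient minus change in wild-type cells) for the 8 genes (y axis); points are estimates from all 24 samples, lines 95% intervals not adjusted for the number of genes, and filled points passed the adjusted test. Nr4a3 is filled for the rise to 8 h and to 24 h, Nr4a2 for the rise to 24 h, and Nab1 lies at -0.79 for the change from 8 h to 24 h.

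The order of the 6 group means was the same for Egr1, Egr2 and the 3 Nr4a genes. It ran from unstimulated wild-type over unstimulated Raptor-deficient, wild-type 24 h, Raptor-deficient 24 h and wild-type 8 h to Raptor-deficient 8 h. Neighbours in that order overlapped between the unstimulated groups for Egr2, Nr4a2 and Nr4a3, and between Raptor-deficient 24 h and wild-type 8 h for Egr1, Nr4a2 and Nr4a3. The highest and lowest mean differed by 5.49 for Nr4a1, 5.03 for Egr1, 4.85 for Egr2, 4.69 for Nr4a2 and 4.43 for Nr4a3 on the log2 scale. The 6 means of Egr3 fell into the unstimulated pair and the 4 stimulated groups, and neighbours within each set overlapped, as they did for Nab2. For Nab1 the Raptor-deficient cells were lowest at 24 h, below every other group. Their 8 h mean was the highest, but the lowest 8 h sample (8.50) lay just under the highest unstimulated Raptor-deficient sample (8.51). The span was 2.13 for Nab2, 1.41 for Egr3 and 0.82 for Nab1.

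Genes outside the 8 with the most similar course were found from the root mean square difference of the 6 group means, each gene centred on its own mean, among 3738 genes whose means spanned at least 1. Closest to Egr1 were Gfi1, a transcriptional repressor of lymphocytes (0.19 on the log2 scale), Rgs16, a regulator of G protein signalling (0.24), and Myc (0.27). Slamf1, a costimulatory receptor, lay closest to Egr2 (0.13) and to Nr4a1 (0.34). Cd69, an early activation marker, lay closest to Nr4a2 (0.38), and Cd274, which encodes PD-L1, to Nr4a3 (0.20). Coq2, an enzyme of ubiquinone synthesis, lay closest to Egr3 (0.02), Rbpms, an RNA-binding protein, to Nab1 (0.16) and Pdcd11, a ribosome biogenesis factor, to Nab2 (0.09). The means of Nab1 itself spanned only 0.82. Genes with so small a span were not candidates, so Rbpms is the closest only among those searched. Among the members themselves, Egr1 and Egr2 were 0.20 apart and Egr1 and Nr4a1 0.25.

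Other immediate early genes were also higher in Raptor-deficient cells in many cases. Of 33 tested, 17 were higher and 1 lower at 8 h (51.5% and 3.03%), 16 and 0 at 24 h (48.5% higher), and 4 and 0 without stimulation (12.1% higher). Of all genes 4.14% were called higher and 8.77% lower at 8 h, and 8.35% and 13.1% at 24 h. Without stimulation the shares of all genes were 0.702% and 1.24%. The list's median difference was 0.44 at 8 h and 0.36 at 24 h. Fosl2, an AP-1 subunit, was higher by 1.51, 1.37 and 0.83 without stimulation, at 8 h and at 24 h, and Tnfaip3, an inhibitor of NF-kB signalling, by 0.98, 0.92 and 0.67, all called. Cd69 was higher by 1.22, 0.47 and 0.85, also called at each time. Klf6, a zinc finger factor, was 1.36 higher at 24 h (adjusted p = 1.27e-08), and Rel, an NF-kB subunit, 0.73 higher (adjusted p = 9.15e-07).

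Not every immediate early gene was higher. Fosl1, another AP-1 subunit, was the 1 called lower at 8 h (-1.165, adjusted p = 3.44e-05). Its differences of -0.15 without stimulation and -0.43 at 24 h were not called. Fos had differences of 0.39, 0.06 and 0.47 and Jun of -0.20, -0.0032 and -0.15, none called, although Fos rose by 2.91 in wild-type cells at 8 h. Irf4, which rose by 5.70, had differences of -0.24 at 8 h and -0.20 at 24 h, neither called. Myc was called at 24 h (0.51, adjusted p = 0.000406) and not at 8 h (0.14). Dusp1, a phosphatase of MAP kinases, was 0.68 higher at 8 h and 0.32 at 24 h, both called. Egr4, with group means of 5.2 to 5.5, was called in none of these comparisons.

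Of 31 tested genes in the signalling route to the Egr and Nr4a genes, 7 were higher and 3 lower at 8 h (22.6% and 9.68%), 8 and 1 at 24 h (25.8% and 3.23%), and 0 and 1 without stimulation. Of all genes 4.14% and 8.77% were higher and lower at 8 h and 8.35% and 13.1% at 24 h, so the lower share at 8 h is near that of all genes. Without stimulation 0.702% of all genes were called higher and 1.24% lower. Hdac7, a histone deacetylase that holds Nr4a1 silent through MEF2, was lower by 0.58 without stimulation (adjusted p = 0.00187) and by 0.77 at 8 h (adjusted p = 9.72e-06), and the difference at 24 h was -0.20, not called. Mef2d, a MEF2 factor, was 0.44 and 0.70 higher at 8 h and 24 h. Rasgrp1, which activates Ras downstream of the antigen receptor, was 0.56 and 0.58 higher, and Elk4, a partner of SRF, 0.36 and 0.51 higher, all called. Zap70, the receptor-proximal kinase, was 0.67 lower at 8 h (adjusted p = 0.00205). Without replicate 1 of both 24 h groups, 4 signalling genes were called at 24 h in place of 9, and without wild-type 8 h replicate 3, 6 were called at 8 h in place of 10.

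Of 24 described Egr targets tested, 5 were higher and 4 lower at 8 h (20.8% and 16.7%), 11 and 3 at 24 h (45.8% and 12.5%), and 1 and 1 without stimulation. Of all genes 4.14% were higher and 8.77% lower at 8 h, and 8.35% and 13.1% at 24 h. Without stimulation the shares of all genes were 0.702% and 1.24%. The share of these targets called lower at 24 h is near that of all genes. Without unstimulated Raptor-deficient replicate 2, 3 were higher and 1 lower without stimulation. Ndrg1, a stress-induced gene linked to T cell anergy, was higher by 0.47, 0.96 and 1.67 at the 3 times, and Bcl6, a transcriptional repressor, by 0.69 and 1.25 at 8 h and 24 h, all called. Tnfrsf9, which encodes 4-1BB, was 0.40 higher at 8 h (adjusted p = 0.0471) and 0.97 higher at 24 h (adjusted p = 4.52e-06). In contrast, Il2 was 0.83 lower at 8 h and 0.77 lower at 24 h (adjusted p = 0.00108 and 0.00121). Fasl, the Fas ligand, was 2.69 lower at 8 h, where its Raptor-deficient mean of 3.89 lay near background. Id2, an inhibitor of E proteins, was 0.69 lower without stimulation and 0.71 higher at 8 h, both called.

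Of 17 tested genes described as targets or companions of Nr4a factors, 4 were higher and 2 lower at 8 h (23.5% and 11.8%), 5 and 3 at 24 h (29.4% and 17.6%), and 1 and 2 without stimulation. The shares called lower at 8 h and 24 h are near the 8.77% and 13.1% of all genes. The shares of all genes called higher at these times were 4.14% and 8.35%. Without stimulation 0.702% of all genes were called higher and 1.24% lower. Ikzf2, which encodes Helios, was higher by 0.62, 1.47 and 1.19, and Gata3, the factor of Th2 cells, by 0.74 and 1.33 at 8 h and 24 h, all called. Bcl2, the survival factor, was 0.44 and 0.97 higher at 8 h and 24 h, both called. The inhibitory receptor genes Pdcd1 and Ctla4 were lower. Pdcd1 was 0.88 lower at 8 h and 0.89 at 24 h, and Ctla4 0.87, 1.09 and 0.83 lower at the 3 times, all called.

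**Figure D5:**
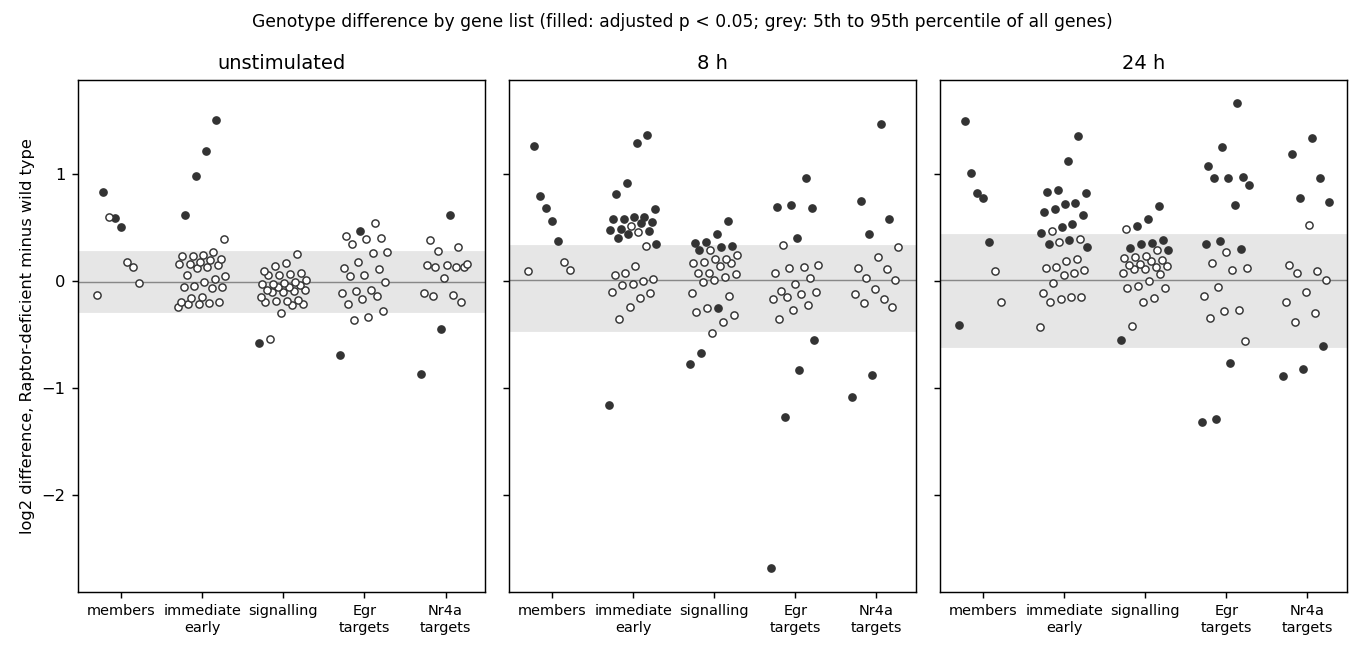
Log2 difference between Raptor-deficient and wild-type cells (y axis) for the 8 members and 4 gene lists (x axis), by time; each point is a gene, filled where the adjusted p was under 0.05, and grey marks the 5th to 95th percentile of all 17097 genes with their median as a line. At 8 h and 24 h most filled members and immediate early genes lie above 0, while the Egr and Nr4a target lists have filled points on both sides.

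Some markers of other cells were called between genotypes. The mean log2 level of 8 myeloid markers was 4.24 to 4.44 in wild-type and 4.43 to 4.80 in Raptor-deficient samples without stimulation, with 1 called higher. It was 4.20 to 4.33 against 4.62 to 4.79 at 8 h, and 4.17 to 4.26 against 4.28 to 4.54 at 24 h, with 2 called higher at each time and 0 lower. For 7 B cell markers it was 4.82 to 5.11 against 4.93 to 5.58 without stimulation, with 0 called, 4.74 to 4.82 against 4.92 to 5.29 at 8 h, and 4.65 to 4.84 against 4.90 to 5.49 at 24 h, with 1 and 2 called higher. For 6 NK cell markers it was 5.06 to 5.19 against 4.80 to 5.01 without stimulation (1 called lower), 4.43 to 4.68 against 4.46 to 4.69 at 8 h (0 called) and 4.35 to 4.44 against 4.41 to 4.65 at 24 h (1 called higher). The 2 CD8 markers averaged 5.63 to 6.78 over all samples, with 0 called between genotypes. Of 9 CD4 T cell markers 0 were higher, and 3, 3 and 1 were lower without stimulation, at 8 h and at 24 h. Of all genes 0.702%, 4.14% and 8.35% were called higher at these 3 times, and 1.24%, 8.77% and 13.1% lower. The 1 CD4 T cell marker of 9 lower at 24 h is near that share. On log2 array values no marker can be at 0, and the part of these markers in the differences of the 8 genes was not tested.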

How the data were processed

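RNA of sorted mouse T cells, 20 ng a sample, was amplified with NuGEN kits and hybridised to Affymetrix arrays, per the labels' protocols. The authors' deposited table holds log2 intensities of 45141 probe sets, made with RMA and Partek 6.5 per the submitters' processing notes; how these were combined is not given in the sources used here. Probe sets were named through the platform annotation, updated by RefSeq (assembly GRCm38.p6). Of these, 28898 had 1 gene symbol, 551 several and 15692 were unlisted. No level filter was applied.

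The tests were made from those values with limma 3.58.1 in R 4.3.3, as 1 linear model of 6 group means over 24 samples (18 residual degrees of freedom) with empirical Bayes moderation. Benjamini-Hochberg adjustment covered 17097 genes in each of 12 two-sided comparisons, or all probe sets where probe sets are compared. The number of arrays limits the precision. On simulated data for the 24 h genotype comparison, with 17097 genes, 80.6% of 67 genes changed 1.5-fold and 97.0% of 67 changed 2-fold were recovered, with 9 false calls. The simulation changed 200 genes and gave each gene the same normal spread in all groups. In the data 1428 genes were called higher and 2243 lower in this comparison, and some arrays varied more, so recovery may differ there.

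The members and the gene lists were chosen with earlier results of these data known. Named genes were the 8 members, the genes most like each, up to 3 called genes with the smallest p for each list at each genotype comparison and at wild-type 8 h, and Fos, Jun, Dusp1, Cd69, Myc and Rptor. Egr4, Alb and Fosl1 were added after their values were seen. In the signalling list 31 of 39 genes were analysed here, in the immediate early list 33 of 35 and in the Nr4a list 17 of 20. Tried as alternatives were averaging a gene's probe sets, array centring, cyclic loess, a filter on dim genes, only the groups compared, an intensity trend with a robust prior, array weights, a replicate block and each sample left out. Figures were drawn with matplotlib 3.10.9.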

Additional observations from a re-analysis of the deposited data

Results flagged for a closer look

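Among the 8 genes in groups of 4 samples, 3 samples lay far from the other 3 of their group, where chance alone flags about 1 in 20 groups and 48 were looked at. Nr4a3 was 7.18 in replicate 2 of unstimulated wild-type cells, below the nearest value of 7.45. It was 10.26 in replicate 3 of wild-type cells at 24 h, above the nearest value of 10.10. In that replicate Nab1 was 8.26, above the nearest value of 8.18.

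Differences between genotypes in a response were called for 3 genes by the test of the difference itself (limma, adjusted p under 0.05). The rise of Nr4a3 differed by 0.62 at 8 h and 0.64 at 24 h, and that of Nr4a2 by 0.89 at 24 h. The change of Nab1 differed by -0.40 from unstimulated cells to 24 h and by -0.79 from 8 h to 24 h.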

How the results depend on the processing

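Of the 96 differences of the 8 genes (8 genes in 12 comparisons), 69 kept their direction and their side of the threshold in all 35 alternatives. The sign turned in 44 of 3360 values, which belong to 11 differences that were not called, and in 0 of the called ones. A call was lost in 68 values and gained in 29. The genotype differences of Egr1 at all 3 times, and of Nr4a1, Nr4a2 and Nr4a3 at 8 h and 24 h, were called in all 35. The Nr4a1 call without stimulation was lost with only the groups compared in the fit (adjusted p = 0.146), the Nr4a2 difference in the rise to 24 h in 25 alternatives, that of Nr4a3 at 8 h in 12, and the Egr2 calls in 6 without stimulation and 10 at 24 h. The members called without stimulation, 3, became 5 with the mean of all probe sets and 1 with only the groups compared. For the difference in the 8 h rise, 1 member became 0 with the mean of all probe sets and with only the groups compared, and 2 with cyclic loess, the dim filter, the trend and robust prior, and array weights. Without unstimulated Raptor-deficient replicates 2 and 3 it became 4, with 2 rises larger and 2 smaller in Raptor-deficient cells. The smaller rises were those of Egr1 (-0.49, adjusted p = 0.0224) and Egr2 (-0.58, adjusted p = 0.0206). Leaving out single samples gave 0 to 2. For the rise to 24 h, 3 became 1 without replicate 1 of both 24 h groups and without unstimulated Raptor-deficient replicates 2 and 3, and 1 to 4 with single samples left out. The signalling list without stimulation, 1 called, had 3 with the mean of probe sets, 2 with the dim filter and with the trend, 0 with only the groups compared, and 1 to 2 with single samples left out. At 8 h its 10 became 16 with array weights (6 to 15 with single samples left out), and at 24 h its 9 became 15 with array weights and 4 without replicate 1 of both 24 h groups. The Egr target list without stimulation, 2 called, had 1 with the mean of probe sets and with array weights, 0 with only the groups compared, 4 without unstimulated Raptor-deficient replicates 2 and 3, 1 without unstimulated Raptor-deficient replicate 1 and replicate 1 of both 24 h groups, and 1 to 4 with single samples left out. The Nr4a list, 3 called, had 1 with only the groups compared, with array weights and without those 3 replicates, and 1 to 3 with single samples left out. The cause was not tested. The alternatives that leave out several replicates were chosen after seeing the data. Replicate numbers were not used as pairs in the main fit. The correlation of same-numbered deviations ran from -0.07 to 0.25. It was over 0.1 in 10 of 60 pairs of samples, and 0 of 15 group pairs had every correlation over 0.1. Between wild-type and Raptor-deficient cells at 24 h it was 0.25, 0.06, 0.17 and 0.10 for replicates 1 to 4. Whether same-numbered samples belong together was not tested further. With the replicate block 3, 5 and 6 members were called without stimulation, at 8 h and at 24 h, as without it. Values near background, as for Egr4 and the dim probe sets, understate differences.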
